A study of Mus musculus with 12 samples.

Results

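Hippocampal RNA of 18-month-old APP/PS1 mice was compared between mice infused with nicotine and mice infused with saline, in 3 libraries of each kind out of the 12 libraries of the series. All mice were male APPswe/PS1dE9 mice on a C57BL/6 background (N9B6). They carry the APPswe and PS1dE9 transgenes, so saline and nicotine mice alike form amyloid plaques, and no mouse without the transgenes was used here. In this line the mouse prion promoter drives both transgenes. An osmotic minipump placed under the skin delivered nicotine hydrogen tartrate, at a dose labelled 48 mg/kg/h, or saline for 14 days. The other 6 libraries were from 7-month mice given the same infusions and served for a test of the difference between the ages. The labels do not say that each library came from a separate animal, so the spread between libraries may be technical.

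Nicotine opens nicotinic acetylcholine receptors, which are pentameric cation channels on hippocampal neurons, interneurons and nerve terminals. Nicotine also acts on the hypothalamus and pituitary and raises adrenal glucocorticoids. These bind the glucocorticoid receptor, which moves to the nucleus and turns on genes such as Fkbp5, Tsc22d3 and Per1. Neuronal firing turns on another set, the immediate early genes such as Fos, Npas4 and Arc, within minutes. The hippocampus holds excitatory granule and pyramidal cells, inhibitory interneurons and glia, and in APP/PS1 mice microglia gather around plaques and take on a distinct expression state.

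Total counts were 21260068 to 23715015 per library. Values are CPM, counts scaled to a library total of 1000000 after a TMM correction for library composition. They are listed in the order of libraries 1, 2 and 3. Granule cell markers summed to 1000 to 1646 CPM and CA1 markers to 1029 to 1254 CPM in the 6 libraries, so markers of the labelled tissue were present in each. Of 8 pituitary hormone and lineage genes 2 passed the filter on low counts, and the 8 summed to at most 2.69 CPM. The first principal component (31.9% of the variance) was led by nicotine library 1, at 16.7, and did not separate nicotine from saline. That library also held most of the choroid plexus RNA: its sum over 20 choroid plexus genes was 2094 CPM, where the other 5 libraries had 119 to 277 CPM.

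Of 44786 genes 18196 were tested, and 8 of these passed an adjusted p of 0.05 (0.044%), 4 higher (0.022%) and 4 lower (0.022%) under nicotine. The log2 ratio is the fitted log2 fold change of nicotine over saline, SE its standard error, and the adjusted p is corrected over all tested genes. An unadjusted p under 0.05 was reached by 6.73% of all genes, 3.35% higher and 3.39% lower, and an unadjusted p under 0.01 by 1.62%, 0.923% higher and 0.692% lower. The 3 nicotine libraries lay wholly above or below the 3 saline libraries in 11.7% of genes, above in 5.6% and below in 6.12%. Of all log2 fold changes 48.1% were above 0, and their median was -0.0047. In data simulated for this comparison the test found 88% of genes changed 2-fold and 98% of those changed 4-fold, with 8.37% of its calls false. Changed genes were drawn from those with a mean above 1 CPM, so lower genes are not covered. The simulated counts of each gene varied independently, without differences in tissue content shared by the genes of a library.

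Scg5 was the protein-coding gene among the 8 with no near-identical copy among the tested genes. It codes for 7B2, a neuroendocrine chaperone that keeps prohormone convertase 2 from aggregating and brings it to its active form in secretory granules. Scg5 (chromosome 2, 113776313 to 113829091, GRCm38) had 189, 174.5 and 173 CPM under saline and 102, 103 and 93.5 CPM under nicotine. Every nicotine library lay below every saline library, and the groups were far apart. The log2 fold change was -0.84 (SE 0.06; adjusted p = 0.00066, edgeR quasi-likelihood test), which puts nicotine at 0.557 of the saline level. The call held in each fit with 1 library left out. In a single fit of all 12 libraries, where the more variable 7-month libraries share the estimate of spread, no gene passed, Scg5 included.

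Pcsk2, the gene of the convertase that 7B2 serves, had 293, 243 and 263 CPM under saline and 265, 287 and 270 CPM under nicotine (log2 ratio 0.04, SE 0.07), with overlapping groups. Pcsk1, the other main convertase gene of neurons, had 16.09, 20.03 and 23.48 CPM and then 13.3, 23.7 and 15.8 CPM (adjusted p = 0.924). Of 22 genes for prohormone processing and granule cargo, Scg5 alone passed, 7 had a fold change above 0, and the median was -0.03. Cadps2, a priming factor of dense-core vesicles, had 88.1, 72.4 and 82.0 CPM under saline and 98.2, 105 and 93.8 CPM under nicotine (adjusted p = 0.519). Its groups did not overlap, in the direction opposite to Scg5.

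Rpl26 codes for a protein of the large ribosomal subunit. It had 66.4, 64.8 and 60.0 CPM under saline and 24.5, 27.5 and 22.5 CPM under nicotine, so every nicotine library had less than every saline library (log2 ratio -1.36, SE 0.08, adjusted p = 0.000253). Gm15772, a processed copy of it on chromosome 5 (3236390 to 3236928), went the other way, from 52.0, 54.4 and 52.0 CPM to 104, 101 and 98.8 CPM (log2 ratio 0.94, SE 0.05, adjusted p = 7.3e-05). Over 438 aligned nt the transcripts differ at 2 bases, both in the coding sequence, and reads that miss them cannot be assigned to either gene. The windows around these bases show how little separates the copies. The base that differs is in capitals, and both windows of Rpl26 (chromosome 11, plus strand, 68902427 to 68903211 and 68903274 to 68904367) cross an exon junction. Those of Gm15772 lie at 3236583 to 3236631 and 3236694 to 3236742 on the plus strand.
Rpl26, first window: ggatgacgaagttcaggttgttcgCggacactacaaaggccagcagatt
Gm15772, first window: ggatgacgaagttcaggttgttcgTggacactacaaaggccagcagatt
Rpl26, other window: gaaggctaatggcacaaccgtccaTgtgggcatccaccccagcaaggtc
Gm15772, other window: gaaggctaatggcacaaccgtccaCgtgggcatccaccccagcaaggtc
Counted from the 5′ end of each window, the substitutions from Rpl26 to Gm15772 are C25T and T25C. With the counts of both genes added, the sums were 118.5, 119 and 112 CPM under saline and 129, 128 and 121 CPM under nicotine. The sum did not pass (log2 ratio 0.11, SE 0.05, adjusted p = 0.744). Among 79 cytosolic ribosomal protein genes Rpl26 alone passed, and the median log2 fold change of the list was 0.01.

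Tdg codes for thymine DNA glycosylase, which removes thymine from G:T mismatches and oxidised methylcytosine during demethylation. Tdg had 8.43, 7.83 and 8.14 CPM under saline and 28.8, 18.1 and 19.6 CPM under nicotine (log2 ratio 1.45, SE 0.17, adjusted p = 0.0289). Its copy Gm9855, elsewhere on chromosome 10, had 16.0, 14.5 and 14.8 CPM under saline and 0.380, 8.56 and 9.05 CPM under nicotine (log2 ratio -1.35, SE 0.62, adjusted p = 0.754). Nicotine library 1 was the highest for Tdg and the lowest for Gm9855 of all 6 libraries. The 2 transcripts differ at 9 of 1194 aligned nt. A stretch of Tdg at 82647299 to 82647347 on the plus strand carries 3 of these bases, shown in capitals over the matching stretch of Gm9855 (42054428 to 42054476, minus strand).
Tdg: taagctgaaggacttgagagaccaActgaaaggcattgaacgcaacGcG
Gm9855: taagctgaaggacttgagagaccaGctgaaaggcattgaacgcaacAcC
The substitutions from Tdg to Gm9855 are A25G, G47A and G49C. Summed, the copies had 24.4, 22.3 and 22.9 CPM under saline and 29.2, 26.7 and 28.6 CPM under nicotine (log2 ratio 0.28, SE 0.07, adjusted p = 0.53). The groups of the sum still did not overlap, but the difference was 0.28 where that of Tdg alone was 1.45. Tdg also overlaps Glt8d2 on the opposite strand, and the strand setting of the counts is not given in the sources used here. Glt8d2 had 10.6, 11.2 and 9.60 CPM under saline and 12.45, 13.75 and 14.28 CPM under nicotine (adjusted p = 0.519). Of the 30 tested genes of base excision and other DNA repair, Tdg alone passed, a call lost without any 1 of the saline libraries, and the median was -0.0037.

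Gm5499, a pseudogene on chromosome 17 (87078260 to 87080230), had 6.69, 7.23 and 7.05 CPM under saline and 1.52, 1.68 and 1.27 CPM under nicotine (log2 ratio -2.22, SE 0.15, adjusted p = 0.000519). Its parent Tmx2, which codes for a thioredoxin-like membrane protein of the endoplasmic reticulum, is far more abundant, with 124 to 131 CPM under saline and 125 to 133 CPM under nicotine. They differ at 5 of 885 aligned nt, the first of which is shown in capitals (Tmx2 on chromosome 2, minus strand, 84677970 to 84678018; Gm5499 on the plus strand, 87078292 to 87078340; substitution C25A from Tmx2 to Gm5499).
Tmx2: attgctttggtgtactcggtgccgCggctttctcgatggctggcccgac
Gm5499: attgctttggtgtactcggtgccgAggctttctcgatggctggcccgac
The sum of both genes had a log2 fold change of -0.01 (SE 0.05), with the groups overlapping. The values of Gm5499 are uncertain for this reason.

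Tmem181c-ps (chromosome 17, 6610103 to 6620925) had the smallest p of all genes. It is a transcribed pseudogene of Tmem181a, which codes for a membrane protein. It had 9.81, 10.4 and 12.2 CPM under saline and 42.6, 47.7 and 45.1 CPM under nicotine (log2 ratio 2.06, SE 0.09, adjusted p = 6.2e-05). With its near-identical relatives Tmem181a and Tmem181b-ps added, the sums were 280, 289 and 318 CPM under saline and 384, 399 and 381 CPM under nicotine. The groups of the sum did not overlap, but it did not pass (log2 ratio 0.39, SE 0.06, adjusted p = 0.161).

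Trim12a, of a family of antiviral restriction factors on chromosome 7 (104299893 to 104315558), was almost absent under saline, with 0, 0 and 0.137 CPM. Under nicotine it had 1.773, 1.637 and 1.602 CPM (adjusted p = 0.0289). No fold is given, as the 3 saline libraries held 3 counts of it in all, and the call held without saline library 3 and in no other fit with 1 library left out. With Trim12c and Trim5, which resemble it at 96.5% and 97.0% of bases, the sum was 5.26, 5.52 and 6.42 CPM under saline and 7.68, 7.15 and 6.22 CPM under nicotine, and the groups overlapped (adjusted p = 0.744). The eighth gene, the predicted LOC102637542, had no position or transcript in the references used. It had 3.97, 4.28 and 6.28 CPM under saline and 1.01, 0.748 and 1.04 CPM under nicotine (log2 ratio -2.37, SE 0.24, adjusted p = 0.0135), a call lost without saline library 2, nicotine library 1 or nicotine library 3.

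**Figure D1:**
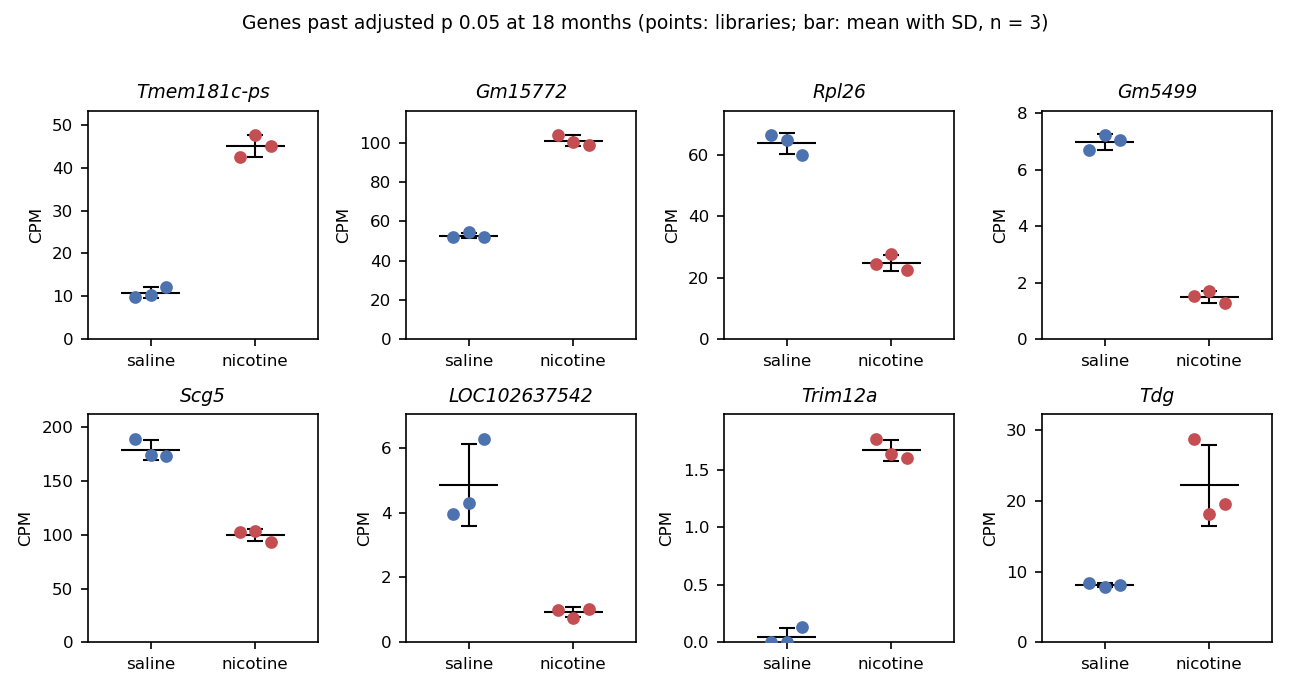
CPM of the 8 genes that passed, by 18-month library; each point is 1 library, the bar is the mean and the whisker the SD (n = 3). In each of the 8 the nicotine libraries lie wholly above or below the saline libraries, and for Tdg nicotine library 1 (28.8 CPM) stands above the other nicotine libraries.

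Copies with at least 95% identity over at least 200 nt were searched for 63 of the named genes. These were the 8 that passed, the 12 higher and 12 lower next by p, and those named after their values were seen. When the counts of their same-strand copies were added and the whole table was fitted again, 2 genes passed in place of 8: Scg5 and LOC102637542. No counts were added to either, as Scg5 had no such copy and LOC102637542 had no transcript to search with. The sums therefore could not test these 2 calls. The split of Tdg and Gm9855 also differed between the 7-month libraries, which were normalised separately, and there within each infusion. Tdg had 6.04, 20.1 and 19.3 CPM in 7-month saline libraries and 17.2, 5.62 and 5.75 CPM in 7-month nicotine libraries. Gm9855 was high where Tdg was low, with 23.6, 9.88 and 11.9 CPM and then 10.97, 25.62 and 22.67 CPM. Their sum stayed between 28.2 and 31.3 CPM in all 6. Gm5499 reached 22.4 CPM in 7-month saline library 2 and 18.1 CPM in 7-month nicotine library 3 and was at most 0.768 CPM in the other 4.

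**Figure D2:**
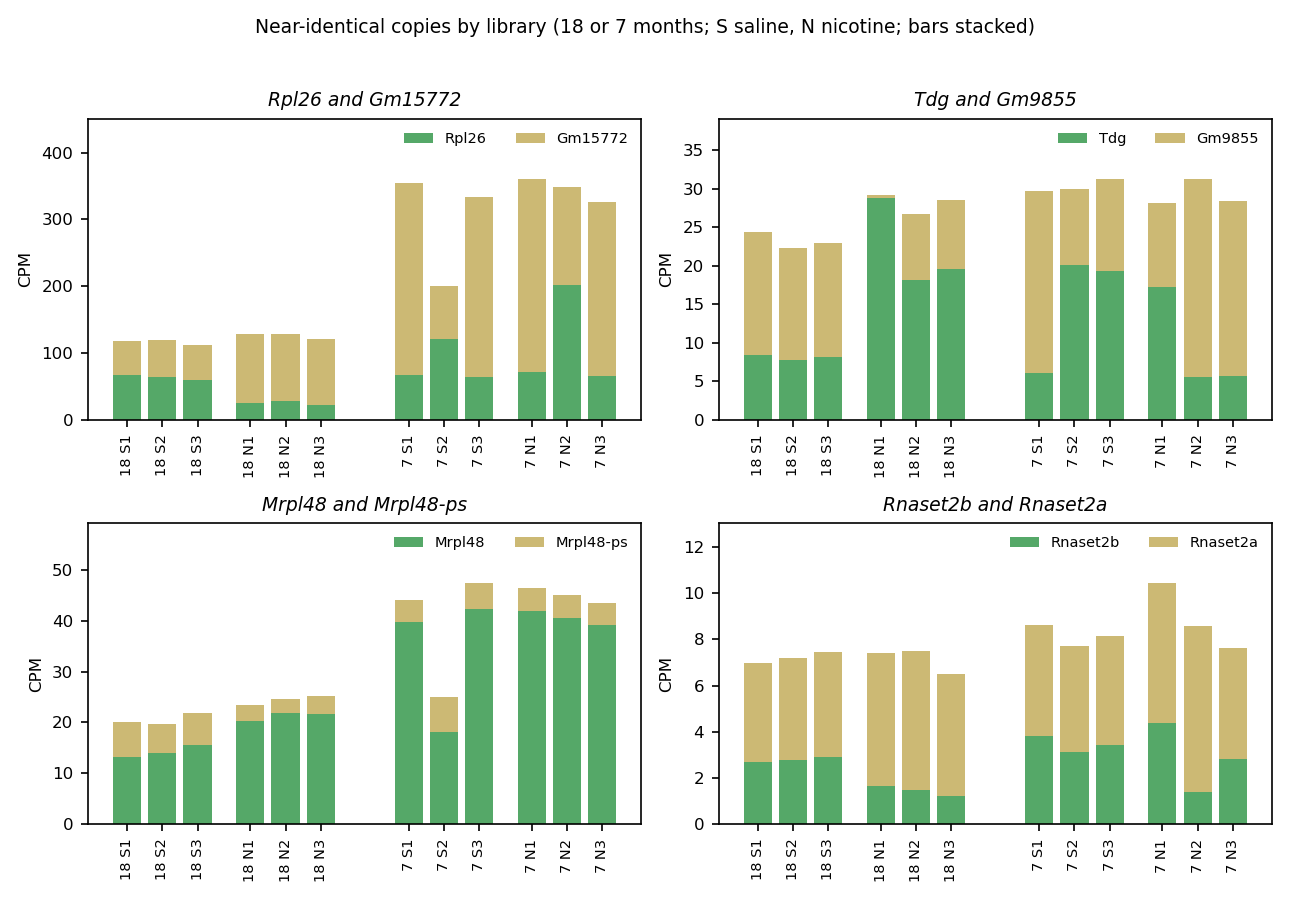
CPM of 4 pairs of near-identical genes stacked by library (S saline, N nicotine; 18-month libraries left, 7-month libraries right, each age normalised on its own). At 18 months the share of Rpl26 and of Tdg differs by infusion while the height of the whole bar differs little; at 7 months the Tdg share differs between libraries of 1 infusion.

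Genes with a small p were gathered at a few places in the genome. Windows of 5 Mb were chosen after these values were seen, and they are described with no test. Of 16475 tested genes with a position, 1.66% had an unadjusted p under 0.01, and 288 of 451 windows with at least 10 tested genes held no such gene. Chromosome 7 from 100 to 105 Mb held 9 among 57 genes (15.8%), chromosome 17 from 5 to 10 Mb 7 among 37 (18.9%), and chromosome 2 from 110 to 115 Mb 6 among 23 (26.1%). These windows hold Trim12a, Tmem181c-ps and Scg5. The mitochondrial genome held 5 among 32, all higher, of which 4 are tRNA genes and the fifth is ND3.

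On chromosome 7 the genes beside Trim12a split in direction. Trim30d, another antiviral family member, had 0.0892, 0.0460 and 0.182 CPM under saline and 0.887, 0.842 and 0.848 CPM under nicotine (adjusted p = 0.067). Trim34b had 1.43, 1.34 and 1.41 CPM under saline and 0.633, 0.748 and 0.707 CPM under nicotine (adjusted p = 0.391). P4ha3, a collagen prolyl hydroxylase subunit, had 17.9, 15.7 and 18.5 CPM under saline and 8.61, 10.8 and 8.10 CPM under nicotine (log2 ratio -0.92, SE 0.12, adjusted p = 0.0639). Mrpl48, a mitochondrial ribosomal protein gene, had 13.2, 13.9 and 15.5 CPM and 20.4, 21.8 and 21.7 CPM (log2 ratio 0.58, adjusted p = 0.067). Its copy Mrpl48-ps had 6.82, 5.76 and 6.37 CPM under saline and 3.04, 2.81 and 3.53 CPM under nicotine, the opposite order. The sum of Mrpl48 and its copy had a log2 fold change of 0.25 (adjusted p = 0.582).

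At 7 months Trim12a, Trim30d and Trim34b marked 1 library and not an infusion. Trim12a was 0 in 7-month saline library 2, against 1.19 to 1.74 CPM in the other 5, saline and nicotine alike. Trim30d had 0.0395 CPM in that library and 0.480 to 0.792 CPM in the other 5, and Trim34b 1.11 CPM against 0.300 to 0.477 CPM. Those other 5 lay near the 18-month nicotine libraries for all 3 genes, and 7-month saline library 2 near the 18-month saline libraries. Gbp2b, an interferon-induced GTPase gene on chromosome 3, showed the same library: 1.38 CPM in it and 0 in the other 5. At 18 months Gbp2b had 1.11, 3.13 and 1.32 CPM under saline and 0.0422, 0.0935 and 0 CPM under nicotine, where the 3 libraries held 3 counts in all (adjusted p = 0.067).

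On chromosome 17 a different 7-month library stood out for Tmem181c-ps, Ccr6, Tagap and Rnaset2b. Tmem181c-ps had 83.1 CPM in 7-month nicotine library 2 and 18.0 to 27.4 CPM in the other 5. Ccr6, a chemokine receptor gene, had 0.0446, 0.0921 and 0.228 CPM in 18-month saline libraries and 1.01, 0.701 and 1.08 CPM in 18-month nicotine libraries. At 7 months it had 0.317 CPM in nicotine library 2 and at most 0.0341 CPM elsewhere. Tagap, a GTPase-activating protein gene of lymphocytes, had 2.27, 2.72 and 2.68 CPM under saline and 4.31, 5.10 and 3.91 CPM under nicotine at 18 months, with 4.83 CPM in 7-month nicotine library 2 and 1.61 to 2.55 CPM in the others. The sum of Tagap and its copy Tagap1, alike at 99.0% of 2152 aligned nt, had a log2 fold change of -0.06 (SE 0.08) at 18 months. Rnaset2b, a lysosomal ribonuclease gene, had 2.67, 2.76 and 2.91 CPM under saline and 1.646, 1.496 and 1.225 CPM under nicotine at 18 months. In 7-month nicotine library 2 it had 1.39 CPM, below the 2.84 to 4.36 CPM of the others. The sum of Rnaset2b and its copy Rnaset2a had a log2 fold change of -0.01 at 18 months (adjusted p = 0.992). The other genes of the window were mixed. Among 7-month libraries, Fndc1 was highest in nicotine library 2 (12.75 CPM) and Tmem181b-ps in saline library 2 (259 CPM). Ezr had 71.0, 73.9 and 75.2 CPM in 7-month saline libraries and 95.9, 104 and 90.4 CPM in 7-month nicotine libraries, without overlap.

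Around Scg5 on chromosome 2, Fmn1, which codes for the actin nucleator formin 1, had 38.2, 34.9 and 38.5 CPM under saline and 25.1, 28.7 and 27.1 CPM under nicotine (log2 ratio -0.47, SE 0.07, adjusted p = 0.0975). Grem1, a secreted BMP antagonist gene that lies between Fmn1 and Scg5, had 2.05, 1.43 and 1.87 CPM under saline and 2.36, 3.69 and 3.49 CPM under nicotine (log2 ratio 0.83, adjusted p = 0.543). Arhgap11a, the nearest tested gene on the other side of Scg5, had a log2 fold change of -0.0042, with overlapping groups. Ano3, a scramblase gene, had 114, 104 and 105 CPM and then 138, 126 and 156 CPM. At 7 months Scg5 had 329, 243 and 215 CPM under saline and 363, 226 and 353 CPM under nicotine, so its 7-month groups overlapped. The difference of the nicotine effect on Scg5 between the ages was -1.10 (adjusted p = 0.526).

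**Figure D3:**
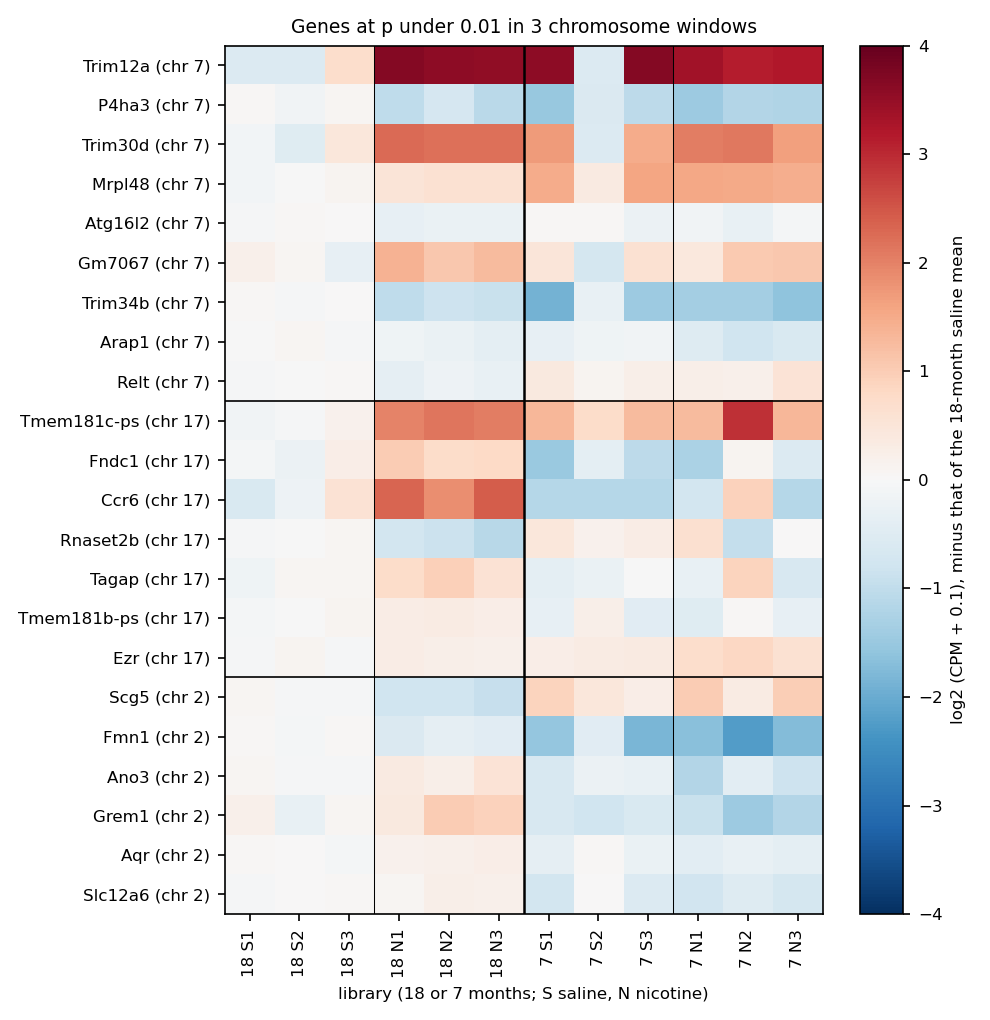
Genes with an unadjusted p under 0.01 at 18 months in windows of chromosomes 7, 17 and 2 (rows) in the 12 libraries (columns; S saline, N nicotine), as log2 (CPM + 0.1) minus that of the 18-month saline mean. For Trim12a, 7-month saline library 2 has the colour of the 18-month saline libraries and the other 7-month libraries that of the 18-month nicotine libraries.

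The next genes by p, none of which passed, were led by Nxph3, a neurexin ligand gene of synapses, with 9.541, 10.96 and 10.19 CPM under saline and 16.3, 19.69 and 16.96 CPM under nicotine (log2 ratio 0.79, SE 0.10, adjusted p = 0.0572). Bhlhe40, a transcriptional repressor of the clock and of activity responses, had 112, 106 and 110 CPM under saline and 148, 134 and 146 CPM under nicotine (log2 ratio 0.38, SE 0.05, adjusted p = 0.067). Tbc1d1, a Rab GTPase-activating protein gene of glucose transporter traffic, had 40.8, 42.3 and 42.4 CPM and then 53.7, 52.7 and 52.7 CPM (log2 ratio 0.34, adjusted p = 0.0719). Such genes were chosen only among those with groups that do not overlap, so that separation is not a further result. Dio2, the deiodinase that makes active thyroid hormone in astrocytes, had 49.98, 60.63 and 75.79 CPM under saline and 93.7, 106.5 and 101 CPM under nicotine (log2 ratio 0.69, adjusted p = 0.235). Lin7c, a synaptic scaffold gene, had a log2 fold change of 0.41 and Evc2, a ciliary Hedgehog pathway gene, one of 0.32, with adjusted p of 0.19 and 0.213.

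Among genes lower under nicotine that did not pass, Sox9, a transcription factor of astrocytes and neural stem cells, had 42.8, 40.4 and 36.4 CPM under saline and 29.1, 28.4 and 28.7 CPM under nicotine (log2 ratio -0.47, SE 0.07, adjusted p = 0.0769). Sox9 was likewise chosen among genes with groups that do not overlap. Frzb, a secreted Wnt antagonist, had 22.8, 23.0 and 25.7 CPM under saline and 16.0, 18.2 and 17.2 CPM under nicotine (adjusted p = 0.167). Hopx, a homeodomain gene of quiescent neural stem cells and astrocytes, had 41.7, 39.4 and 43.9 CPM and then 33.0, 33.1 and 34.4 CPM (adjusted p = 0.258). Lrig1, a brake on growth factor receptors, had 47.3, 47.2 and 44.5 CPM and then 33.1, 38.6 and 35.6 CPM (adjusted p = 0.231). Hes5, the Notch target, had 7.85, 8.01 and 5.19 CPM and then 2.70, 4.07 and 3.86 CPM (adjusted p = 0.357; named after its values were seen). Of 18 tested genes of neurogenesis and proliferation, 1 was higher and 2 were lower at an unadjusted p under 0.05 (Sox11 higher, Hopx and Sox2 lower). That is 16.7% of the list, against 6.73% of all genes, and the median was -0.18.

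Genes that respond to glucocorticoids stood high under nicotine. Of 26 listed genes, all tested, none passed over all genes, 23 had a fold change above 0, and the median log2 fold change was 0.33. At an unadjusted p under 0.05, 16 were higher and 1 was lower, against 3.35% and 3.39% of all genes. In 15 of the 26 the nicotine libraries all lay above the saline libraries, against 5.6% of all genes. Over the other fits the median stayed between 0.27 and 0.40. The summed level was 1683, 1743 and 1771 CPM under saline and 1989, 2004 and 2078 CPM under nicotine. Members were listed with earlier results of these samples known, so the list is not independent evidence of its direction.

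The members differ in role and in size of difference. Plin4, a lipid droplet coat protein gene, had 7.13, 11.4 and 13.2 CPM under saline and 23.6, 24.9 and 32.4 CPM under nicotine (log2 ratio 1.35, SE 0.20, adjusted p = 0.0932), the largest of the list. Hif3a, a hypoxia-inducible factor subunit, had 6.06, 7.87 and 13.7 CPM under saline and 17.9, 21.7 and 20.9 CPM under nicotine (log2 ratio 1.13, SE 0.25). Both had saline library 3 as the highest saline library and still no overlap. Tsc22d3, which codes for the anti-inflammatory protein GILZ, had 45.7, 60.3 and 63.0 CPM and then 80.6, 93.6 and 84.4 CPM (log2 ratio 0.61, SE 0.11). Xdh, which codes for xanthine dehydrogenase of purine breakdown, had 13.15, 15.01 and 18.2 CPM and then 20.8, 24.8 and 24.4 CPM (log2 ratio 0.59, SE 0.12).

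Feedback and stress genes of the list had smaller differences. Fkbp5, which codes for a co-chaperone that lowers the receptor's affinity for hormone, had 71.0, 61.6 and 74.2 CPM under saline and 83.3, 83.0 and 94.0 CPM under nicotine (log2 ratio 0.33, SE 0.08, adjusted p = 0.44). Errfi1, a feedback inhibitor of the EGF receptor, had 47.1, 45.4 and 51.2 CPM and then 64.3, 62.1 and 60.3 CPM (log2 ratio 0.38, SE 0.06, adjusted p = 0.114). Mt2 and Mt1, the metallothioneins that bind zinc and copper, had log2 fold changes of 0.32 (SE 0.05) and 0.21 (SE 0.05). Cdkn1a, the cell cycle inhibitor p21, had 6.15, 5.89 and 9.23 CPM and then 10.8, 10.9 and 11.2 CPM. Of the receptor genes themselves, Nr3c1 had a log2 fold change of -0.03 (SE 0.06) and Nr3c2, the mineralocorticoid receptor gene, one of 0.01 (SE 0.06). Per1, a clock gene and receptor target, had -0.10 (SE 0.05), and Dusp1, a MAP kinase phosphatase gene that is also activity-induced, had -0.53 (SE 0.19), so these members did not go with the rest.

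Promoters of the list were searched on both strands, from 250 bases before to 50 bases after each RefSeq start (GRCm38.p6), for the palindrome that the receptor binds, AGAACA and TGTTCT with 3 bases between. It was present in 1 of 15633 promoters of tested genes, and that promoter belongs to Sgk1, a list member that codes for a kinase of ion transport. It is shown for this match, which is in capitals (chr10:21993640-21993939, plus strand).
Sgk1: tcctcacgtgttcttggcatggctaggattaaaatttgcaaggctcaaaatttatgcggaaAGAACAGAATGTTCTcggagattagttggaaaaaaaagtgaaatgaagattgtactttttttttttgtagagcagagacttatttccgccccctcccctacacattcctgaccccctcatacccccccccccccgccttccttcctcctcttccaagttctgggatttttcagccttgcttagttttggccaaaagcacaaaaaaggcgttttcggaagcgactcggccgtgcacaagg
Sgk1 has several annotated starts, and the counts do not tell them apart. Sgk1 had 95.05, 140 and 108.9 CPM under saline and 143, 124 and 158 CPM under nicotine, with overlapping groups (log2 ratio 0.31, SE 0.14, adjusted p = 0.739). The inner letters ACANNNTGT, which the palindrome contains, were in 4.62% of all promoters and in 5 of the 36 promoters of the list (13.9%; Lcn2, Map3k6, Mt1 and Sgk1). They were in 6 of 44 promoters of immediate early genes as well (13.6%). A match is only a description of these letters.

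The promoter of Mt2 is shown for 6 matches to TGCNCNC, a loose form of the core of the metal response element, on either strand and in capitals (chr8:94172368-94172667, plus strand). Such letters were in 60.2% of all promoters.
Mt2: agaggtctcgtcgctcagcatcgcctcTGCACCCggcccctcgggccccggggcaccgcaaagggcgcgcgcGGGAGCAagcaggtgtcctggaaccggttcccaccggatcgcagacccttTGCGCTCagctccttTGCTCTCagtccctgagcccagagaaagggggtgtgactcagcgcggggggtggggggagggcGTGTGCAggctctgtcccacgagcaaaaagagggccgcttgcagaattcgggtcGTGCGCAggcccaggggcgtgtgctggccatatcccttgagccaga
Mt2 had 82.3, 80.3 and 84.9 CPM under saline and 99.8, 111 and 99.4 CPM under nicotine (adjusted p = 0.164), with no overlap, at 1.251 times the saline level.

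Immediate early genes lay on both sides of 0 at 18 months. Of 34 tested genes none passed, 14 had a fold change above 0, and the median was -0.02. At an unadjusted p under 0.05, 5 were higher and 8 were lower, against 3.35% and 3.39% of all genes. Together these were 38.2% of the list, against 6.73% of all genes. The lower ones included the neuron-specific transcription factor Npas4, with 39.9, 25.3 and 26.4 CPM under saline and 17.48, 17.68 and 19.03 CPM under nicotine (log2 ratio -0.76, SE 0.16, adjusted p = 0.351). Fos had 39.9, 26.8 and 21.2 CPM and then 20.6, 17.4 and 16.2 CPM (adjusted p = 0.575), and Junb, Nr4a1 and Egr2 likewise had groups that did not overlap. Saline library 1 was the highest library for Npas4, Fos and Arc. Maff and Ier5 went the other way, Maff with 2.76, 2.39 and 3.19 CPM and then 6.29, 4.72 and 3.86 CPM (log2 ratio 0.84, SE 0.20, adjusted p = 0.487). The growth factor gene Bdnf had 40.3, 34.0 and 33.7 CPM and then 33.1, 33.3 and 40.7 CPM (log2 ratio -0.01, SE 0.10), and Egr1 had -0.15 (SE 0.10).

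**Figure D4:**
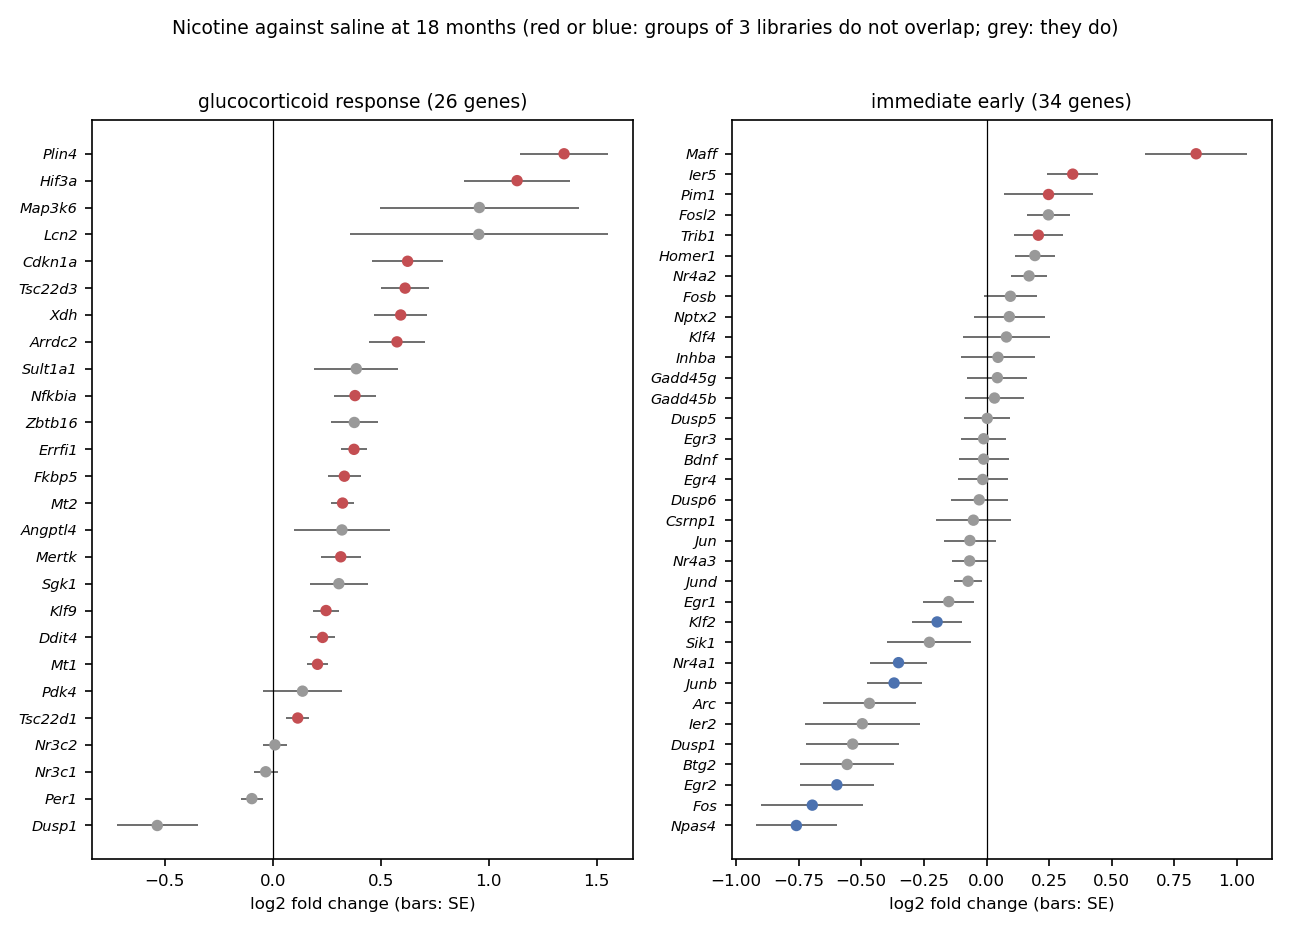
Log2 fold change (nicotine against saline at 18 months) of each glucocorticoid-response gene (left) and immediate early gene (right), with the SE as bars; red and blue points have groups of 3 libraries that do not overlap. Most glucocorticoid-response genes lie right of 0 (23 of 26), while immediate early genes lie on both sides (14 of 34 above 0).

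Nicotinic receptor genes, which encode the target of nicotine, had small differences. Of 13 tested nicotinic receptor subunits and accessory proteins none passed, 7 had a fold change above 0, and the median was 0.01. The subunits of the main brain receptors, Chrna4, Chrnb2 and Chrna7, had log2 fold changes of 0.04 (SE 0.10), -0.02 (SE 0.06) and -0.09 (SE 0.08). Chrna5, an accessory subunit, had 3.57, 3.54 and 3.55 CPM under saline and 4.18, 4.68 and 4.66 CPM under nicotine. Chrna3, a neighbouring subunit gene, had 0.758, 0.875 and 0.773 CPM and then 0.380, 0.608 and 0.424 CPM, the opposite order. Neither passed (adjusted p = 0.682 and 0.684). Ache, the enzyme that breaks down acetylcholine, had 54.6, 51.2 and 65.4 CPM and then 47.1, 49.4 and 51.1 CPM (adjusted p = 0.718).

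Among other transmitter genes, Gabra2, the GABA-A receptor alpha subunit of axon initial segments, had 43.47, 72.42 and 50 CPM under saline and 107, 121 and 81.5 CPM under nicotine (log2 ratio 0.90, SE 0.19, adjusted p = 0.35). It was 79.1 CPM in 7-month saline library 2, against 17.3 to 30.4 CPM in the other 7-month libraries. Of the 24 GABA genes tested, Gabra2 had the largest log2 fold change, and the median was 0.0003. Gabra2 and Gabrb2 were among the 3 of these 24 that were higher at an unadjusted p under 0.05. None was lower, where 3.35% of all genes were higher and 3.39% lower. Drd5, a dopamine receptor gene, had 14.9, 13.1 and 11.8 CPM and then 20.1, 17.3 and 21.7 CPM (log2 ratio 0.57, SE 0.11, adjusted p = 0.313). The interneuron genes Htr3a and Cnr1, for a serotonin-gated channel and a cannabinoid receptor, had lower values under nicotine without overlap, Htr3a with 10.7, 10.1 and 11.2 CPM and then 8.06, 8.84 and 7.16 CPM (adjusted p = 0.519). Of 19 interneuron markers 4 were below 0 on the log2 scale at an unadjusted p under 0.05, none above, and the median was -0.05. Those 4 were 21.05% of the list, against 6.73% of all genes. None of 31 synaptic vesicle genes and 1 of 33 calcium and plasticity kinase genes (3.03%) reached an unadjusted p under 0.05, against 6.73% of all genes.

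Dentate granule cell markers had a median log2 fold change of 0.21, with 18 of 20 above 0, 5 at an unadjusted p under 0.05 and none passing. Those 5 were 25% of the list, against 6.73% of all genes. C1ql2, a mossy fibre synapse organiser, had 47.7, 52.7 and 56.5 CPM under saline and 70.7, 54.9 and 86.6 CPM under nicotine. The summed markers were 1148, 1184 and 1143 CPM under saline and 1403, 1000 and 1646 CPM under nicotine, so nicotine library 2 lay below the saline libraries and the other nicotine libraries above. In bulk tissue fewer or more cells of a type cannot be told apart from less or more RNA per cell. CA2 and CA3 markers had a median of -0.03, and the summed level of nicotine libraries 1 and 3 was 845 and 801 CPM against 934 CPM in nicotine library 2 and 938 to 1018 CPM under saline. Nicotine library 2 was thus the lowest for granule cell markers and the highest of its group for CA2 and CA3 markers. The part of these marker levels in the values of other genes was not tested.

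Glial lists lay slightly below 0. Of 36 plaque-associated microglia genes 6 had a fold change above 0, 4 were lower at an unadjusted p under 0.05, and the median was -0.10. Those 4 were 11.1% of the list, against 6.73% of all genes. Cd52 had 4.41, 3.78 and 4.41 CPM under saline and 2.83, 3.65 and 2.87 CPM under nicotine (adjusted p = 0.672), and Cst7, a cysteine protease inhibitor gene of plaque microglia, had a log2 fold change of -0.13 (SE 0.16). Trem2, the lipid-sensing receptor gene of microglia, had -0.13 (SE 0.08). Homeostatic microglia genes split: Cx3cr1, the fractalkine receptor gene, had 76.6, 69.3 and 70.8 CPM and then 61.5, 52.9 and 56.3 CPM (log2 ratio -0.34, SE 0.07, adjusted p = 0.278). Olfml3 had 9.94, 10.3 and 9.14 CPM and then 20.1, 15.2 and 12.7 CPM (log2 ratio 0.71, SE 0.16, adjusted p = 0.391). Complement genes C1qa, C1qb and C1qc had overlapping groups.

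Astrocyte markers had a median of -0.05, with members on both sides. Gjb6, the gap junction protein connexin 30, had 31.1, 37.2 and 40.7 CPM and then 48.0, 53.6 and 46.1 CPM (log2 ratio 0.44, SE 0.10, adjusted p = 0.415). S100b had 81.4, 92.1 and 89.5 CPM and then 74.5, 76.3 and 76.9 CPM (log2 ratio -0.21, SE 0.06, adjusted p = 0.519), and Gfap had a log2 fold change of -0.14 (SE 0.12). Oligodendrocyte and myelin genes had 1 of 27 above 0 and a median of -0.17, yet none reached an unadjusted p under 0.05. Their summed level was 5605, 7364 and 4185 CPM under saline and 5372, 4239 and 5809 CPM under nicotine, and without saline library 2 the median was 0.04.

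Vascular genes differed in both directions. Kdr, the main VEGF receptor gene, had 14.8, 16.4 and 14.1 CPM under saline and 11.74, 12.53 and 11.68 CPM under nicotine, and Cldn5, the tight junction claudin gene, 18.3, 17.2 and 18.1 CPM and then 10.9, 16.1 and 13.6 CPM. Slc2a1, the glucose transporter gene of the blood-brain barrier, had 80.4, 101 and 116 CPM and then 131, 137 and 117.5 CPM, and Mfsd2a, its lipid transporter gene, 12.9, 17.3 and 21.8 CPM and then 22.1, 25.0 and 24.1 CPM. None of the 4 passed (adjusted p of 0.519, 0.613, 0.613 and 0.661), and the 28 tested endothelial and pericyte genes had a median of 0.0014.

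Tissue next to the hippocampus differed between libraries. Of the 20 choroid plexus genes 15 were tested, all 15 with a fold change above 0 and a median of 1.61. Without nicotine library 1 that median was -0.36. Ttr, the thyroid hormone carrier of the choroid plexus, had 3.52, 63.8 and 2.46 CPM under saline and 1391, 3.46 and 2.36 CPM under nicotine. Meningeal and fibroblast genes summed to 264, 336 and 282 CPM under saline and to 451, 583 and 285 CPM under nicotine. Of those 22 genes 19 were above 0, and the median was 0.60 (0.29 to 0.79 over the other fits). At an unadjusted p under 0.05, 8 were higher (36.4%), against 6.73% of all genes in either direction. The part of this tissue in the values of other genes was not tested.

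In cell metabolism the differences were small. Unfolded protein response genes had 25 of 28 above 0 and a median of 0.09, with 7 higher and none lower at an unadjusted p under 0.05. Those 7 were 25% of the list, against 6.73% of all genes. Hspa5, the main chaperone of the endoplasmic reticulum, had 188, 196 and 191 CPM under saline and 245, 211 and 208 CPM under nicotine (log2 ratio 0.21, SE 0.07, adjusted p = 0.618). Cholesterol synthesis genes had 1 of 23 above 0 and a median of -0.12. Lss, which closes the sterol ring, had 42.0, 36.8 and 43.1 CPM and then 34.6, 36.4 and 31.9 CPM (log2 ratio -0.25, SE 0.08, adjusted p = 0.613). Of 13 mitochondrial mRNA genes 12 were above 0 with a median of 0.11, and ND3, a complex I subunit, had 267, 256 and 284 CPM and then 312, 344 and 292 CPM (adjusted p = 0.603). App had a log2 fold change of -0.05 (SE 0.08), and whether its counts include reads of the APPswe transgene was not tested. The 32 amyloid processing genes had a median of -0.02. Of these, 2 were higher at an unadjusted p under 0.05 and none lower (6.25%, against 6.73% of all genes). Aph1b, which codes for a gamma-secretase subunit, had 27.4, 27.9 and 32.0 CPM and then 33.9, 37.5 and 32.9 CPM (adjusted p = 0.613).

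**Figure D5:**
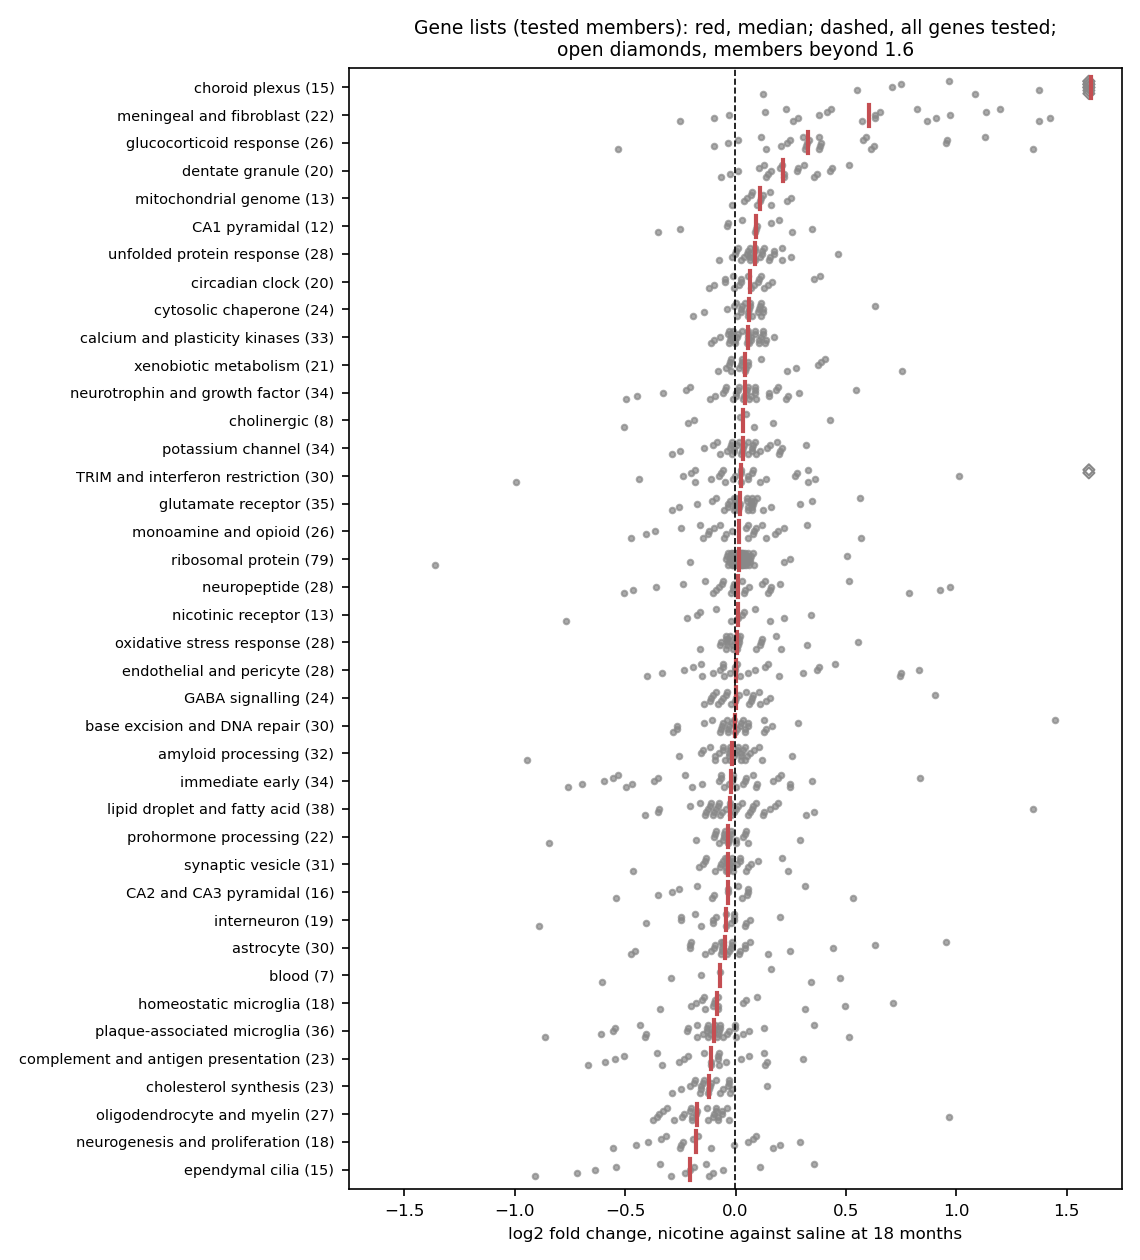
Log2 fold changes (nicotine against saline at 18 months) of the tested members of 40 gene lists (grey points) with each list's median (red) and that of all genes tested (dashed, -0.0047); open diamonds at the edge stand for members beyond 1.6. Choroid plexus, meningeal and glucocorticoid-response lists have the highest medians (1.61, 0.60 and 0.33) and the ependymal list the lowest (-0.21).

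The nicotine effect at 18 months was set against that at 7 months in a fit of all 12 libraries. The counts of each age were deposited separately, so age cannot be told apart from other differences between those libraries. The difference passed for 1 of 19171 genes (0.00522%), Egr2, an activity-induced zinc finger transcription factor. At 18 months Egr2 had 9.94, 7.18 and 8.73 CPM under saline and 5.91, 4.91 and 6.27 CPM under nicotine. At 7 months it had 7.18, 10.5 and 10.8 CPM under saline and 1.29, 0.832 and 0.959 CPM under nicotine. Nicotine libraries lay below saline libraries at both ages, further below at 7 months, and the difference of the log2 fold changes was 2.59 (SE 0.30, adjusted p = 0.0346). The call was lost in 10 of the 12 fits with 1 library left out. Spread between libraries was larger at 7 months, with a common dispersion of 0.0417 against 0.00956. At 7 months 2 of 17596 genes passed (0.0114%), 6.5% had an unadjusted p under 0.05, 17.4% had groups that did not overlap and 48.7% had a fold change above 0. The immediate early list there had a median of -0.55, where it was -0.02 at 18 months, and the glucocorticoid list 0.41 where it was 0.33; these differences between lists were not tested.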

How the data were processed

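The authors deposited raw read counts per gene for each age. Per the submitters' processing notes, TopHat and GRCm38 were used; the counting tool, annotation and strand setting are not given in the sources used here. The labels' protocol text describes a small RNA kit, while the deposited tables hold counts of mRNA genes. On the 6 libraries of 18 months the counts were filtered by filterByExpr, scaled by TMM and tested with the quasi-likelihood F-test of edgeR 4.0.16 (R version 4.3.3) at a Benjamini-Hochberg threshold of 0.05. The difference between ages was an interaction term over 12 libraries. Fold changes are nicotine over saline on the log2 scale, and SE is the fold change divided by the root of F. An exact permutation test of 3 against 3 libraries cannot go below p = 0.1. The fits were tested on simulated data with 200 changed genes. Copies of 63 of the named genes were searched with BLAST 2.17.0 (at least 95% identity over 200 nt, GENCODE transcripts, at most 3 partners per gene). Positions and promoters are from RefSeq GRCm38.p6.

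Named genes were those that passed, the 12 higher and 12 lower with the smallest p after them among genes with a full symbol, a mean log2 CPM of at least 1 and groups that do not overlap, up to 4 members of each list by p, neighbours and copies of the called genes, and a set always named. Others were named after their values were seen. Members and lists were chosen with earlier results of these data known. Alternatives were other scaling (RLE), no filter, a filter at a mean of 1 CPM, DESeq2 1.42.0, a replicate block, each library left out, all 12 libraries in 1 fit and, chosen after seeing the data, near-identical copies summed. Same-numbered libraries correlated at -0.297, -0.317 and -0.191, so the numbers were not taken as pairs. Some list members are not reported here by name.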

Additional observations from a re-analysis of the deposited data

Results flagged for a closer look

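The nicotine effect on Egr2 differed between the ages by the interaction test of edgeR. The log2 fold change was -0.60 at 18 months and -3.19 at 7 months, a difference of 2.59 (SE 0.30, adjusted p = 0.0346). All 3 nicotine libraries lay below all 3 saline libraries at both ages. The call was lost with the replicate block and in most fits with 1 library left out. Age cannot be told apart here from other differences between the 2 separately deposited sets of libraries.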

How the results depend on the processing

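Against 8 genes at 18 months, 35 passed without a filter on low counts, 57 with DESeq2, 0 in 1 fit of all 12 libraries (505 at an unadjusted p under 0.05) and 2 with near-identical copies summed. With 1 library left out 5 to 21 passed: 5 without saline library 2, 21 without saline library 3 and 18 without nicotine library 2. Trim12a was lost without each library but saline library 3, Tdg without each saline library, and LOC102637542 without saline library 2, nicotine library 1 or nicotine library 3. With a replicate block 9 genes passed, 7 of them among the 8; Trim12a was lost, and Gbp2b and Plin4 were gained. Against 1 gene for the difference between ages, 36 passed with DESeq2, 0 with the replicate block (1218 at an unadjusted p under 0.05), and 0 to 3 with 1 library left out. Egr2 was kept only without 7-month saline library 1 or 7-month saline library 2, the latter giving 3. The cause of these changes was not tested.

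Some log2 fold changes near 0 turned sign with 1 library left out. Pcsk2 ranged from -0.021 (without saline library 2) to 0.12, App from -0.11 to 0.029 (without saline library 1) and Nr3c1 from -0.068 to 0.0091 (without saline library 2). Chrna4 ranged from -0.081 (without nicotine library 2) to 0.0945. Chrnb2 ranged from -0.057 to 0.0175 (without saline library 3; 0.0067 without nicotine library 3). Cst7 ranged from -0.25 to 0.093 (without saline library 3). Bdnf ranged from -0.11 to 0.081 (without saline library 1; 0.04 without nicotine library 1 or 2), and was 0.0003 without a filter and 0.0020 in 1 fit of all 12 libraries. Ttr ranged from -2.99 (without nicotine library 1) to 7.28.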
